A study of Rattus norvegicus with 6 samples.

Results

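Taken as the TIM receptor family of the rat were 4 genes, Timd2, Havcr1, Havcr2 and Timd4, out of 15645 genes that array probes could be matched to. Their probes were found through the RefSeq accession given for each probe. Timd2 and Havcr1 had 1 probe each, Havcr2 had 2, and Timd4 had 0 matched probes, so Timd4 was not analysed here. The animals were male Sprague-Dawley rats, bought at 5 weeks of age, and the RNA came from the cortex of the kidney. The DNPT group, 3 rats, was dosed for 4 weeks with 200 mg/kg/day of N,N'-dinitrosopentamethylenetetramine, which belongs to the N-nitroso compounds. The vehicle group, also 3 rats, received corn oil for the same 4 weeks. Each rat had 1 Agilent array of 61537 probes, hybridised with Cy3-labelled cRNA. The family was selected on the DNPT and vehicle signals of this same comparison, among them those of Timd2. The values of the 3 measured genes are therefore given as a description, with no test of their own.

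TIM proteins (T cell immunoglobulin and mucin domain proteins) sit in the cell membrane, with an immunoglobulin-like domain at the tip of a mucin-like stalk. Timd2 encodes a protein that in mice takes up heavy-chain ferritin, binds semaphorin 4A and is found on B cells and in liver and kidney. Havcr1, also called Kim-1, is a phosphatidylserine receptor that is nearly silent in healthy proximal tubule and is strongly induced there by injury, which makes it a widely used marker of kidney damage. Havcr2, or Tim-3, is an inhibitory receptor of T cells that is also carried by macrophages and dendritic cells. Timd4 encodes a phosphatidylserine receptor of tissue macrophages.

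In the RefSeq gene order of assembly GRCr8 the 4 genes lie close together on chromosome 10, with Timd2 next to Havcr1 and Havcr1 next to Timd4. Because the signals of all 3 measured genes were lower on average in DNPT rats, the RefSeq promoter windows of the 3 are shown, each from 250 bases before to 50 bases after the annotated transcript start and read 5′ to 3′ on the gene's own strand. Capitals mark matches to any of 8 motifs searched on both strands. The Timd2 window is chr10:31595827-31596126 on the minus strand, the Havcr1 window is chr10:31629528-31629827 on the plus strand and the Havcr2 window is chr10:31383675-31383974 on the plus strand (all GRCr8).
Timd2: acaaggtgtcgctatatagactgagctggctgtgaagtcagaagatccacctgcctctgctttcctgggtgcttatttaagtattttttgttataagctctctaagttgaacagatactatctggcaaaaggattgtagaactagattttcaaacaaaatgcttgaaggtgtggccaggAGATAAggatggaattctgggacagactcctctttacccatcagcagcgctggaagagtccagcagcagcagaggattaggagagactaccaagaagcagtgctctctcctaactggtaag
Havcr1: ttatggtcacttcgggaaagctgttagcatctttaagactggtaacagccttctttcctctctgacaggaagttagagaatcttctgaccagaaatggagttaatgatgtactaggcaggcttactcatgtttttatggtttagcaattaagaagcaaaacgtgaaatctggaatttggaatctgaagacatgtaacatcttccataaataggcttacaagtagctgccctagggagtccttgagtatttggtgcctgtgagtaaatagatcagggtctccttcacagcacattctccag
Havcr2: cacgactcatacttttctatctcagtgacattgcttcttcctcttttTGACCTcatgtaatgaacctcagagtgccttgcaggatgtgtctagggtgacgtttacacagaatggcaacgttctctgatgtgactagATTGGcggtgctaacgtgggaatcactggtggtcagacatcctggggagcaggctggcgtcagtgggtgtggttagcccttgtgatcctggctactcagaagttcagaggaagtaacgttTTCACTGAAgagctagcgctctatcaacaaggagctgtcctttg

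The motifs were the E-box CACGTG, the nuclear receptor half-site AGGTCA, the STAT motif TTCNNNGAA, the AP-1 motif TGANTCA, the CCAAT box CCAAT, the TATA box TATAAA, the GATA motif AGATAA and the D-box core TTATGTAA. The Timd2 window held 1 match, AGATAA, from base -71 to base -66 relative to the transcript start, a motif that was in 11.6% of 33469 rat promoter windows of the same length. The Havcr2 window held 3 matches that did not overlap. They were the nuclear receptor half-site, which 16.2% of windows had, the CCAAT box, which 37.5% had, and the STAT motif, which 8.87% had. The Havcr1 window held 0 matches. No motif was therefore shared by the 3 windows, and none held CACGTG, which was in 6.42% of all windows, or TATAAA, which was in 14.2%. GC content was 44.7% for Timd2, 41% for Havcr1 and 49% for Havcr2, against a median of 51.7% over all windows. These matches describe letters only, and binding was not measured.

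Timd2 was lower in every DNPT rat, at 54.1% of the vehicle level. Its processed signal was 2614, 2239 and 2497 units in DNPT rats 1, 2 and 3, against 5234, 6173 and 5252 units in vehicle rats 1, 2 and 3. The groups did not overlap, and the brightest DNPT array was below the dimmest vehicle array on the raw and on the scaled signal. On the scaled signal, the log2 value relative to the 75th percentile of the same array, Timd2 averaged 1.27 ± 0.05 in DNPT rats and 2.15 ± 0.07 in vehicle rats (SD, n = 3 each). The change, DNPT minus vehicle, was -0.89 (SE 0.08), which made the signal 1.85-fold higher in vehicle rats.

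The rats within a group differed little in Timd2. The gap between the highest DNPT and the lowest vehicle value was 0.74 log2 units, while the pooled SD within groups was 0.06, and 92.1% of all tested features had a larger pooled SD. Each DNPT rat taken alone was about as far from the vehicle mean, at -0.92 for DNPT rat 1, -0.92 for rat 2 and -0.83 for rat 3. DNPT rat 1 shared slide 1 with the vehicle rats and the other DNPT rats were on slide 2, so the difference was as large within slide 1 as across slides. The probe was well above background on all 6 arrays, with 0 saturated spots, and the scanner software's own error was 10% of the spot signal on each array. Since 1 probe measured the gene, no other probe on these arrays checks it.

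**Figure D1:**
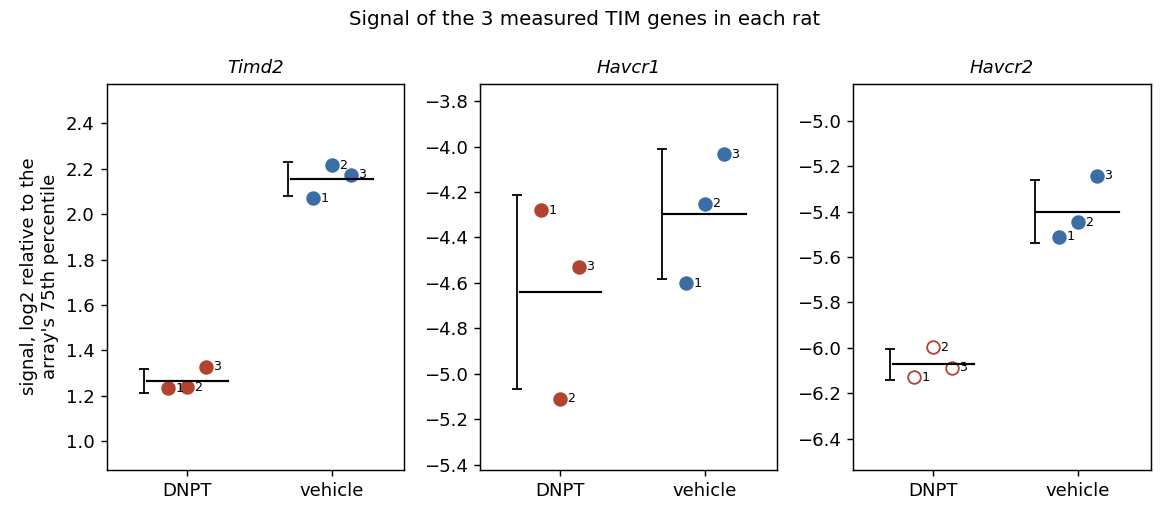
Signal of Timd2, Havcr1 and Havcr2 in each rat, as log2 relative to the 75th percentile of the array, with DNPT left of vehicle. Each numbered point is 1 rat, open points were not well above background, horizontal lines are means and vertical bars are ± 1 SD (n = 3). The 3 panels span the same number of log2 units but start at different levels, and levels are not comparable between probes. The DNPT and vehicle points are apart for Timd2 (1.27 against 2.15) and Havcr2 and overlap for Havcr1.

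Havcr1, the injury marker, was near the dim end of the array in both groups and was not higher on average after DNPT. Its signal was 57.2, 27.5 and 43.1 units in DNPT rats 1, 2 and 3, against 51.3, 69.8 and 71.0 units in vehicle rats 1, 2 and 3. The groups overlapped, with DNPT rat 1 above vehicle rat 1 and DNPT rat 2 lowest of all. The scaled means were -4.64 ± 0.43 in DNPT rats and -4.30 ± 0.29 in vehicle rats (SD, n = 3 each), a change of -0.34 (SE 0.26) that was smaller than the pooled SD of 0.36. All 6 spots were well above background, with scanner errors of 12.3% to 16.2% of the signal in DNPT rats and 11.1% to 12.3% in vehicle rats. Havcr1l1 and Havcr1l2, annotated between Havcr2 and Timd2, had 0 matched probes, and whether the Havcr1 probe also reads their RNA was not checked.

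The small Havcr1 difference varied between rats. DNPT rat 1 was at 0.02 relative to the vehicle mean, rat 2 at -0.81 and rat 3 at -0.23. Without DNPT rat 2 the change was -0.11, and without vehicle rat 3 it was -0.21. On slide 1 alone, which sets DNPT rat 1 against the 3 vehicle rats, it was 0.015, with the sign turned. Arrays in the same column of their slides deviated together across features, and within these pairs, formed after seeing the data, DNPT minus vehicle was -0.51, -0.28 and -0.25 for Havcr1. None of the 3 DNPT rats reached the highest vehicle rat, at -4.28 for the highest DNPT rat and -4.03 for vehicle rat 3.

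Havcr2, the inhibitory receptor of T cells and myeloid cells, was measured by a pair of probes, and only 1 of them gave a signal. That probe read 15.9, 14.9 and 14.6 units in DNPT rats 1, 2 and 3, against 27.4, 30.5 and 30.7 units in vehicle rats 1, 2 and 3. The groups did not overlap, and the spot was well above background on 0 of 3 DNPT arrays and 3 of 3 vehicle arrays. The scaled means were -6.07 ± 0.07 in DNPT rats and -5.40 ± 0.14 in vehicle rats (SD, n = 3 each), a change of -0.67 (SE 0.10). Because the DNPT spots were not well above background, the difference is best given as a bound. Taken on the scanner's processed signal, vehicle rats averaged at least 1.26-fold brighter for Havcr2. For this the DNPT side was set, on each array, to the higher of the spot's own signal and the lowest signal well above background. The bound uses the vehicle mean and leaves out spot error. It need not hold under other background corrections, since normexp correction with quantile normalization gave a change of only -0.12 log2 units.

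The other Havcr2 probe was not well above background on any of the 6 arrays. It read 4.22, 4.69 and 4.17 units in DNPT rats and 3.83, 4.43 and 3.48 units in vehicle rats, with scanner errors of 75.7% to 100% of the signal, and no fold is given for it. Even on the brighter probe the corrected signal was smaller than the local background around its spot, which was 37 to 43 units in DNPT rats and 48 to 49 units in vehicle rats. Of the 3 genes, Havcr2 moved most with the background correction. With normexp correction and an offset of 50 units, more than the spot's own signal, it was -0.12 and that of Havcr1 -0.13, while Timd2 was at -0.90.

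Of the 3 measured genes, 2 had all DNPT values below all vehicle values, a pattern that 8.17% of the 34913 features tested showed, and 12.1% showed the reverse. The choice of the genes used this contrast, so nothing is read from that count or from the shares given next for single genes. No feature of the whole table, and so none of these genes, passed limma with Benjamini-Hochberg adjustment at an adjusted p under 0.05. A change as low as that of Timd2 or lower was found in 2.08% of all features and in 0.721% of probes of like signal. Those are single probes within 0.5 log2 units of its level, taken with no filter on dim probes, unlike the features. For Havcr1 the shares were 13.2% of all features and 20.8% of probes of like signal. The Havcr2 change is a bound and is not ranked. Probes of like signal did not all centre on 0. The 4200 probes near the Havcr2 level had a median change of -0.12, and 9.48% had all DNPT values below all vehicle values. For the 4926 probes near the Havcr1 level the median was -0.07, and for the 3191 probes near the Timd2 level it was 0.05, where 5.23% had all DNPT values lower.

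**Figure D2:**
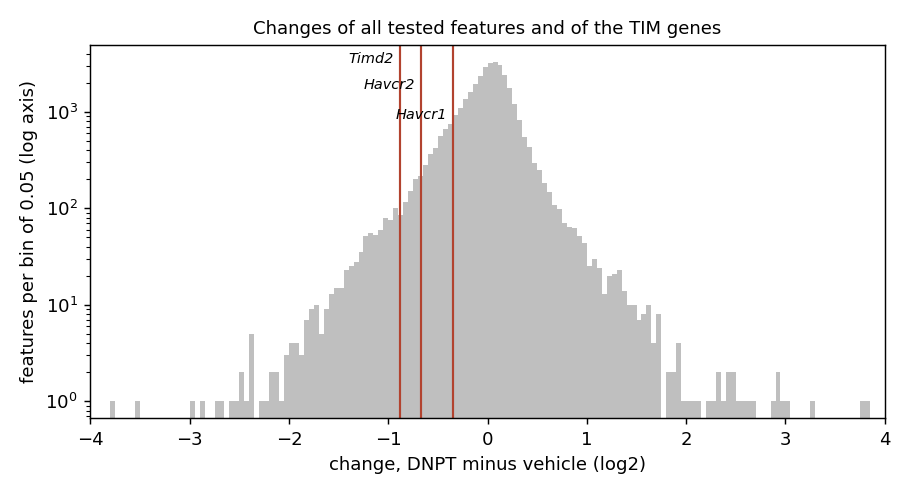
Number of tested features by change, DNPT minus vehicle in log2 units, in bins of 0.05, with a logarithmic count axis. Red lines mark Timd2 (-0.89), Havcr2 (-0.67, with DNPT spots not well above background) and Havcr1 (-0.34), which all lie left of the median of all 34913 features (0.01), and 5 features beyond 4 log2 units are outside the axis.

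The named genes with the most similar profile over the 6 arrays were found by the root mean square difference after each gene's own mean was subtracted. Among 12675 genes, Ugt1a1, the enzyme that conjugates bilirubin, was closest to Timd2, with a difference of 0.09 log2 units. It averaged 0.72 ± 0.08 in DNPT rats and 1.51 ± 0.04 in vehicle rats (SD, n = 3 each). Gpr31 (0.12), Sytl3 (0.13), Gdap1 (0.14) and Havcr2 itself (0.14) came next. Ugt1a1 was also the closest gene to Havcr2 (0.08), followed by Tdrd5 (0.09), Slurp1 (0.09), Opcml (0.09) and Gmeb1 (0.10). The DNPT values of Havcr2 in these comparisons came from spots not well above background, and it entered the table only through the vehicle arrays. Choosing genes by a profile like those of Timd2 and Havcr2 fixes that their means were lower in DNPT rats, so nothing is read from their changes, which ran from -0.79 (Ugt1a1) to -0.53 (Slurp1). Havcr1 had other neighbours in profile. Or1j16 (0.09), Cyp2a1 (0.10), Fbn2 (0.10), Mcmdc2 (0.10) and Grm3 (0.10) shared its low value in DNPT rat 2. There Or1j16 was at -5.89, against -4.94 in DNPT rat 1 and -5.11 in DNPT rat 3. Their choice by profile fixes this likeness too, so nothing is read from it.

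**Figure D3:**
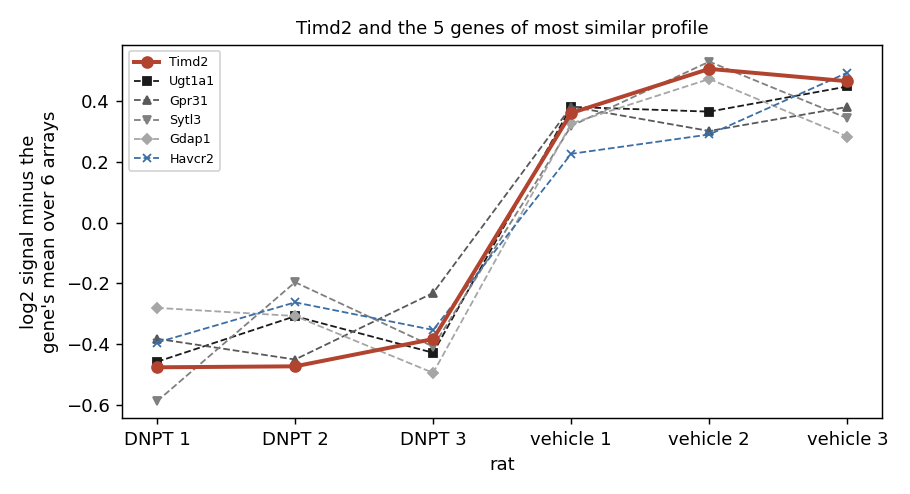
Log2 signal of Timd2 and of the 5 genes of most similar profile in each rat, with each gene's mean over the 6 arrays subtracted. Points are single rats and lines join the values of 1 gene. All 6 genes lie below 0 in the 3 DNPT rats and above 0 in the 3 vehicle rats, which their choice by profile fixes, and the DNPT spots of Havcr2 were not well above background.

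Genes close to the family on chromosome 10, on either side, were set beside it by gene order only. Cyfip2, a regulator of the actin cytoskeleton, had a change of -0.41 (SE 0.10, limma adjusted p = 0.347). All its DNPT values were below all vehicle values, and it lies on the Havcr2 side. On the Timd4 side, Sgcd was at 0.65 (SE 0.73), Rack1 at 0.05 (SE 0.08), Trim41 at 0.12 (SE 0.08) and Irgm at -0.09 (SE 0.16). The lower values therefore did not extend to every gene of the neighbourhood.

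Among the ligands and partners of TIM proteins, 0 of 11 tested genes passed, and 1 was higher and 2 lower at an unadjusted p under 0.05, a level that 6.01% of all features reached as higher and 6.06% as lower. Fth1, the ferritin heavy chain that the mouse Timd2 protein takes up, averaged 8.69 ± 0.19 in DNPT rats and 8.49 ± 0.04 in vehicle rats (SD, n = 3 each), a change of 0.21 (SE 0.11) with overlapping groups. Sema4a, the semaphorin bound by the same mouse protein, had a change of -0.11 (SE 0.10). Among proposed ligands of Havcr2, Lgals9 had a change of 0.06 (SE 0.21), Hmgb1 of 0.35 (SE 0.18) and Ceacam1 of 0.57 (SE 0.18, limma adjusted p = 0.384), with all DNPT values of Ceacam1 and Hmgb1 above all vehicle values. Lck, a T cell kinase that acts on the tail of Havcr2, had a change of -0.43 (SE 0.14, limma adjusted p = 0.387). The proteases Adam10 and Adam17, which release TIM proteins from human cells, were at -0.12 (SE 0.13) and -0.12 (SE 0.09).

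Among genes of ferritin and iron handling, positive changes were more frequent than negative ones. Of 21 tested genes, 15 had positive and 6 negative changes and 0 passed, with a median change of 0.10 against 0.01 over all features. Changes were negative in 47.7% of all features, but in only 36.4% of probes near the Timd2 level. Several genes of this list, Ftl1, Fth1 and Lrp2 among them, were brighter than Timd2. The part of signal level in the list's changes was not tested. At an unadjusted p under 0.05, 2 were higher and 0 lower, against 6.01% and 6.06% of all features. The list median relative to the vehicle mean was 0.02 in DNPT rat 1, 0.05 in rat 2 and 0.22 in rat 3, the rat that stood apart in liver transcripts. Steap2, a metalloreductase, averaged 4.32 ± 0.05 in DNPT rats and 3.83 ± 0.04 in vehicle rats (SD, n = 3 each), a change of 0.48 (SE 0.08, limma adjusted p = 0.263), and the iron importer Slc11a2 had a change of 0.60 (SE 0.16, limma adjusted p = 0.356). Ftl1, the ferritin light chain, was at 0.28 (SE 0.13). Tfrc, the transferrin receptor, was at 0.18 (SE 0.26) and Scara5, a ferritin receptor in mice, at 0.55 (SE 0.40), both with overlapping groups.

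Havcr1 belongs to the receptors of phosphatidylserine, a lipid that dying cells expose. Of 22 tested genes of phosphatidylserine recognition and engulfment, 0 passed, with a median change of 0.02. At an unadjusted p under 0.05, 1 was higher and 2 were lower, against 6.01% and 6.06% of all features. Pros1, a bridging ligand, was at -0.40 (SE 0.11), Tgm2, a transglutaminase, at -0.56 (SE 0.19) and the receptor kinase Mertk at 0.26 (SE 0.10), each without overlap between groups. Its relative Axl was at -0.21 (SE 0.13) and the bright annexin Anxa1 at -0.01 (SE 0.11).

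The wider set of tubular injury and repair genes stood, like Havcr1, without a shared rise. Of 28 tested genes, 15 had positive and 13 negative changes and 0 passed, with a median change of 0.01. Over all features, 47.7% had negative changes. At an unadjusted p under 0.05, 1 was higher and 3 were lower, against 6.01% and 6.06% of all features. Lcn2, an injury marker that tubule cells secrete, averaged -2.16 ± 0.28 in DNPT rats and -1.72 ± 0.16 in vehicle rats (SD, n = 3 each), a change of -0.44 (SE 0.17, limma adjusted p = 0.406) with no overlap. Clu (0.01, SE 0.28), Spp1 (-0.10, SE 0.21) and Vim (-0.01, SE 0.08) overlapped between the groups. S100a6, a calcium-binding protein, was at 0.42 (SE 0.14) and Ccn2, a matricellular protein, at -0.34 (SE 0.13). The brightest members were Umod at -0.17 (SE 0.15) and B2m at 0.15 (SE 0.13).

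**Figure D4:**
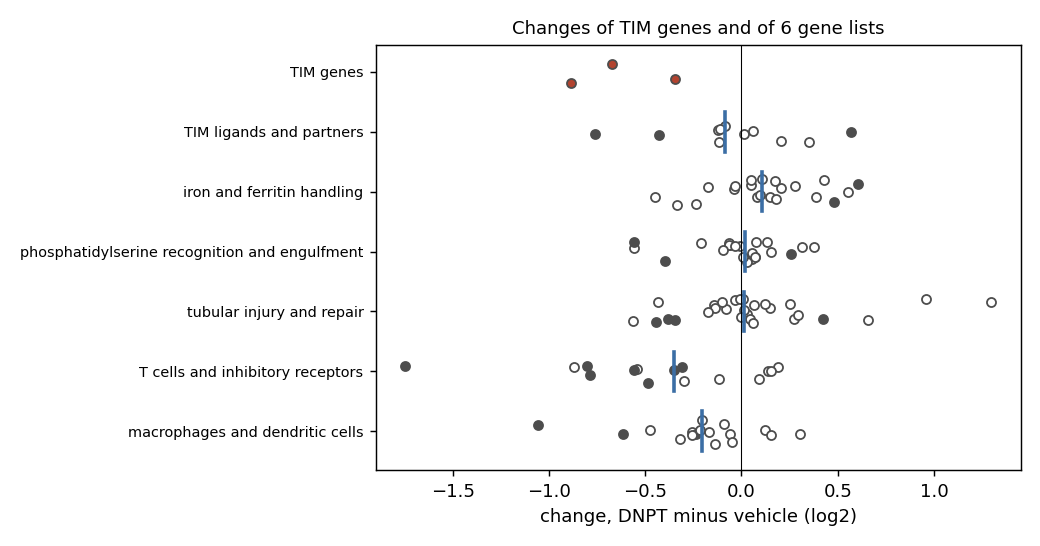
Change of each gene, DNPT minus vehicle in log2 units, for the 3 TIM genes (red) and for the tested genes of 6 lists. Filled grey points had an unadjusted p under 0.05, open points did not, blue bars are list medians and the vertical position within a row is arbitrary. The T cell list has a median of -0.35 and the iron list of 0.10.

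Havcr2 is carried by T cells, macrophages and dendritic cells, and genes of those cells were measured beside it. Of 15 tested genes of T cells and inhibitory receptors, 11 had negative changes and 0 passed, with a median change of -0.35. At an unadjusted p under 0.05, 7 were lower and 0 higher, against 6.06% and 6.01% of all features. Changes were negative in 47.7% of all features, but in 59.5% of probes near the Havcr1 level and 59.7% near the Havcr2 level. Several genes of this list, Cd2, Cd3e and Cd8a among them, were about as dim, and the part of this in the list's changes was not tested. By DNPT rat the list median was -0.31, -0.28 and -0.47 for rats 1, 2 and 3. The T cell genes Cd3d, Cd2 and Cd3e were at -0.35 (SE 0.11), -0.80 (SE 0.17) and -1.75 (SE 0.65), but Cd2 was well above background on 0 of 3 DNPT arrays and Cd3e on 1 of 3. The 2 brightest probes of the list, for the transcription factors Tbx21 (-0.30, SE 0.15) and Gata3 (0.19, SE 0.14), overlapped between groups. Whether T cells gave the signals of these 2 probes was not tested. The summed signal of the list, in multiples of the 75th percentile, was 64.8 to 91.5 in DNPT rats and 87.5 to 90.8 in vehicle rats, of which Tbx21 alone gave 96.2% to 97.0% on each array. Without Tbx21, left out after seeing the data, the sum was 2.137 to 2.708 in DNPT rats and 2.715 to 2.889 in vehicle rats. Cd28, Cd96, Ifng and Pdcd1lg2 were not well above background on any array.

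Genes of macrophages and dendritic cells had negative changes in 14 of 17 tested, against 47.7% of all features, with 0 passing and a median of -0.20. Among them 3 were lower and 0 higher at an unadjusted p under 0.05, against 6.06% and 6.01% of all features. By DNPT rat the list median was -0.40, -0.02 and -0.35 for rats 1, 2 and 3, so DNPT rat 2 was close to the vehicle mean. Fcgr2b, the inhibitory Fc receptor, was at -0.61 (SE 0.10, limma adjusted p = 0.264), Clec9a, a receptor of dendritic cells for dead cells, at -1.06 (SE 0.32), Cd68 at -0.32 (SE 0.17), Lyz2 at -0.26 (SE 0.15) and C1qb at -0.06 (SE 0.19). The summed signal of the list was 66.9 to 88.7 in DNPT rats and 81.9 to 100.6 in vehicle rats, so the groups overlapped. Lyz2 alone gave 67.5% to 72.8% of it on each array. Without Lyz2, left out after seeing the data, the sum was 19.3 to 27.5 in DNPT rats and 23.8 to 28.3 in vehicle rats. Cd5l, Marco, Vsig4 and Xcr1 were not well above background on any array. In whole cortex, fewer cells of a type and less RNA per cell cannot be told apart. The part of either cell type in the Havcr2 result was not tested.

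For Timd2 the cells that could carry the signal were measured in the same way. All 15 proximal tubule genes were well above background on all 6 arrays, and their summed signal was 3033 to 3477 in DNPT rats and 2703 to 2870 in vehicle rats. It lay higher in DNPT rats. Of probes near the Timd2 level, 17.0% had all DNPT values higher and 5.23% all lower, and 36.4% had negative changes. The genes of this list were about that bright or brighter, and the part of signal level in the sum was not tested. At an unadjusted p under 0.05, 3 genes were higher and 0 lower, against 6.01% and 6.06% of all features. Whether these cells gave the Timd2 signal was not tested. The transporters Slc5a2 and Slc22a8 were at 0.42 (SE 0.11) and 0.21 (SE 0.08), and the bright enzymes Miox and Fbp1 at 0.08 (SE 0.15) and 0.26 (SE 0.10). The 7 tested B cell genes summed to 2.88 to 3.63 in DNPT rats and 2.58 to 5.38 in vehicle rats. Cd79b, part of the B cell receptor, was at 1.14 (SE 0.20, with 1 DNPT value left out as an outlier spot), while the bright Pax5 (-0.46, SE 0.45) and Blnk (-0.04, SE 0.14) overlapped. The B cell sums of the groups overlapped, and the cells that gave the Timd2 signal were not identified by these arrays.

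Across arrays, 42077 to 43352 probes were well above background in DNPT rats and 44728 to 45165 in vehicle rats. With 1 array per rat, precision is limited by their number. At an unadjusted p under 0.05, 12.1% of all features differed, and the smallest adjusted p was 0.114. All DNPT arrays lay in row 2 of their slides and all vehicle arrays in row 1, so array row and group cannot be told apart. DNPT rat 3 stood apart in 11 liver transcripts, whose median was 3.54 log2 units above the vehicle mean there, against 0.07 in DNPT rat 1 and -0.23 in DNPT rat 2. Without DNPT rat 3 the changes were -0.92 for Timd2, -0.40 for Havcr1 and -0.66 for Havcr2.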

How the data were processed

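Per the submitters' processing notes, scans were read with Agilent Feature Extraction 10.7. The scanner files, as deposited, give a 1-colour spot intensity that this software had corrected for background, per the file headers, and no gene name column. The deposited value table is a linear ratio: it equalled each array's processed signal over a constant near its 75th percentile (at least 99.8% of probes above 1 within 0.5%), with column medians of 0.112 to 0.116. The sources used here do not state how it was made.

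Control spots and 113 outlier-flagged spots were left out. The measure was log2 of the processed signal minus the array's 75th percentile. Probes were tested if well above background on at least 3 of 6 arrays with at least 2 values per group (44303 probes). Of 61537 probes, 28206 matched 1 gene of the RefSeq GRCr8 table by unversioned accession, 0 several and 33331 none. The tested probe of highest mean signal stood for a gene, and unnamed probes stood alone, giving 34913 features. The array design uses rn4, so GRCr8 served for names, gene order and promoter sequence only, and probe sequences were not compared with related genes.

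DNPT and vehicle rats, biological replicates per the labels, were compared with limma 3.58.1 (R 4.3.3, Python 3.11.15), two-sided, with no covariates, and p-values of all features were adjusted by Benjamini-Hochberg at 0.05. An exact permutation test of 3 against 3 rats cannot go below 0.1. The fit was tested on simulated data. The genes, lists and rules were chosen with earlier results of these data known. From lists shown by name, the 2 genes with the smallest p and the 2 brightest were taken, plus a fixed set of ligands, partners and markers, and for each measured TIM gene the 5 of most similar profile. The gene neighbours, the probes of like signal and array column as a block were added after seeing the data. Lists used for counts only were thick ascending limb and distal tubule (median change -0.13), collecting duct (0.34), podocyte (-0.09), endothelial (0.09) and fat and adrenal genes (-0.18). Alternatives were other normalizations, filters, probe rules and variance models, slide or replicate number as a block, and each rat left out. Normexp took the median spot signal, since the files hold no mean. Some items that fall under these rules are not reported here.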

Additional observations from a re-analysis of the deposited data

How the results depend on the processing

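The Timd2 change kept its direction in all alternatives run, from -0.93 to -0.86. Leaving out each rat gave -0.93 to -0.86 for Timd2, -0.52 to -0.11 for Havcr1 and -0.73 to -0.59 for Havcr2. Havcr1 turned to 0.015 with slide as a block and on slide 1 alone, both of which rest on DNPT rat 1. Havcr2 was at -0.12 with normexp and quantile normalization, and had no value when a probe had to be well above background on all arrays. Testing each other probe of a gene on its own gave no value, since the second Havcr2 probe was not well above background on any array, and Timd4 had no matched probe. Features past the adjusted threshold numbered 0, but 5 with normexp, 1 with slide as a block and 0 to 616 with each rat left out, 616 without DNPT rat 1 and 3 without vehicle rat 2. Without DNPT rat 1 each group is on its own slide, so slide and group cannot be told apart. At an unadjusted p under 0.05, the 4217 features became 8756 with no filter, 6836 with array weights, 2387 with a slide block, 2707 within slide 1, and 2539 to 7311 with each rat left out (7311 without DNPT rat 1, 2581 without vehicle rat 1 and 2539 without vehicle rat 2). The cause of these differences was not tested. With the replicate block, 3088 features had an unadjusted p under 0.05 and Timd2 stayed at -0.89. Replicate numbers did not pair the rats, since the deviations of same-numbered rats from their group means correlated across features at -0.18, -0.06 and -0.18. Deviations did correlate between arrays of the same column on their slides, at 0.33, 0.27 and 0.26, while the other 6 pairs were at -0.20 to -0.06. With array column as a block, chosen after seeing the data, the 3 changes were the same, the SE for Havcr1 was 0.10 against 0.26, and 4331 features had an unadjusted p under 0.05. Signal over background limits Havcr1 and Havcr2, and the single probe limits Timd2.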
